A study of Mus musculus with 8 samples.

Results

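This account concerns the T cells of 2 single-cell libraries, C3 and C4, taken as summed transcript counts and compared gene by gene, separately for CD8 and CD4 lineage cells. A cell barcode was kept when it held 500 or more UMIs (unique molecular identifiers, each counting 1 captured transcript) and 300 or more genes, with mitochondrial transcripts making up no more than 10%. It was called T with at least 2 UMIs of the CD3 genes Cd3d, Cd3e and Cd3g together, 0 of the B cell genes Cd79a and Ms4a1, and at most 2 of the macrophage genes C1qa, C1qb and C1qc. Cd8-only barcodes had at least 1 UMI of Cd8a or Cd8b1 and 0 of Cd4, and Cd4-only barcodes the reverse. The rule found 11028 T barcodes of the 14489 kept in C3 and C4, and of 25172 kept in all 4 libraries of the series. Of these, 9277 were Cd8-only or Cd4-only and entered the sums.

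The series covers mice labelled SS, an abbreviation the labels do not spell out, and control mice, 4 of each at about 12 weeks of age. Immune cells were sorted for CD45 with an antibody to CD45.2 from the submandibular gland, digested with collagenase, and from its draining lymph nodes, which were triturated. Each combination of genotype and tissue gave 1 expression and 1 T cell receptor library, of which the expression ones are used. Neither the labels nor the file headers tied C3 or C4 to a genotype or a tissue, so nothing below compares SS with control or gland with node. Strain, alleles and sex were not given in the sources used here, and how the 4 mice of a genotype were combined was not given either. With 1 library a side there is no replicate check and no test: a difference between C3 and C4 is a difference between these libraries. Intervals are 95% intervals, exact Poisson for levels, exact conditional binomial for ratios and Clopper-Pearson for shares, and they cover counting error only.

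CD8 T cells recognise peptides on MHC class I and kill through perforin and granzymes, and CD4 T cells recognise peptides on MHC class II and help B cells and other cells. Naive T cells circulate through lymph nodes under CCR7 and S1PR1, with the transcription factors TCF1 (Tcf7) and LEF1. Antigen-experienced cells keep transcripts such as Ccl5 ready, carry CXCR3 and high CD44, and show T-bet (Tbx21) or Eomes. Follicular helper T cells carry CXCR5, PD-1 (Pdcd1) and ICOS, depend on BCL6, and supply interleukin-21 to germinal centre B cells.

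C3 and C4 held their T cells in different proportions. In C3, 7356 of 8532 kept barcodes were T barcodes (86.2%), and in C4 3672 of 5957 (61.6%). Cd8-only barcodes were 5344 of the T barcodes in C3 (72.7%, interval 71.6 to 73.7%) and 1081 in C4 (29.4%, 28.0 to 30.9%). Cd4-only barcodes were 1263 in C3 (17.2%, 16.3 to 18.1%) and 1589 in C4 (43.3%, 41.7 to 44.9%). A further 257 T barcodes in C3 and 242 in C4 carried both co-receptors, 492 and 760 carried neither, and these were left out of the sums. The Cd8-only sums held 50119778 UMIs in C3 and 8517047 in C4, and the Cd4-only sums 8399000 and 9997948, so the Cd8-only sum of C4 was the less deeply sampled side of its comparison. Median depth per barcode was 8940 and 7334 UMIs in the Cd8-only gate and 5072 and 5891 in the Cd4-only gate. T barcodes with exactly 2 CD3 UMIs numbered 29 in C3 and 26 in C4, and 59 and 28 more barcodes met every other condition with 1 CD3 UMI. C3 and C4 shared 85 kept barcode sequences, 45 of them T barcodes in both. No doublet caller was used: the gate itself removes barcodes with Cd79a or Ms4a1 UMIs or with over 2 C1q UMIs, while pairs of T cells, or of a T cell with a dendritic or C1q-low myeloid cell, can remain.

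T cell receptor and signalling transcripts were present in both gates. The 8 T cell markers, 3 of which (Cd3d, Cd3e and Cd3g) are genes of the rule, summed to 3720 CPM (counts per 1000000 UMIs of the sum) in C3 and 3971 in C4 in the Cd8-only gate, and to 5259 and 4352 in the Cd4-only gate. Of those the rule did not use, Lck was at 549 and 552 CPM in the Cd8-only gate and 659 and 544 in the Cd4-only gate, and Trac at 182 and 174 and at 244 and 204. B barcodes, used below as cells that should lack T cell transcripts, are those with at least 2 UMIs of Cd79a and Ms4a1 and 0 of CD3 (671 in C3, 1849 in C4). Salivary epithelial, stromal and erythroid markers were at most 7.40 CPM summed in either gate, neutrophil markers at most 3.93, and Ncr1, a defining NK cell receptor, was at most 1.2 CPM. Other markers were less even in the Cd4-only gate: the 12 B cell markers summed to 718 CPM in C3 and 285 in C4, the 11 myeloid markers to 367 and 87.2, and the 10 dendritic markers to 464 and 146. In the B cell sum most came from Cd74, the class II invariant chain, in C3, and from Ighm, the IgM heavy chain, in C4. Cd74 was at 552 and 69.0 CPM and Ighm at 147.5 and 203.5, with Cd79a and Ms4a1 at 0 by the rule. In the myeloid sum Lyz2 gave 210 and 5.10 CPM, and in the dendritic sum the class II genes H2-Aa, H2-Ab1 and H2-Eb1 gave 137 and 17.6, 113 and 10.6, and 116 and 10.9. In the Cd8-only gate the same 3 sums were 250 and 283, 155 and 116, and 204 and 210 CPM. The part of these transcripts in each result was not tested beyond the count without such barcodes given further on.

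A gene was called different at a 2-fold or larger ratio of CPM where its mean CPM over both libraries was at least 5. In the Cd8-only gate 8718 genes met that level: 173 (1.98%) were at least 2-fold higher in C3 and 133 (1.53%) in C4, 306 (3.51%) in all. In the Cd4-only gate 769 of 9171 genes (8.39%) were higher in C3 and 199 (2.17%) in C4, 968 (10.6%) in all. Within 1.5-fold lay 90.8% of the genes in the Cd8-only and 77.5% in the Cd4-only gate. A sum cannot tell fewer cells carrying a transcript from less RNA per cell, so the percent of barcodes with a UMI stands beside the main genes. Past 4-fold there were 47 and 38 genes in the Cd8-only gate and 296 and 34 in the Cd4-only gate. The median log2 ratio of C3 over C4 over all these genes was -0.10 in the Cd8-only and 0.14 in the Cd4-only gate, which is the baseline for the list medians below. The shares of all genes called in each gate and direction are likewise the background for the counts of list members below.

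**Figure D1:**
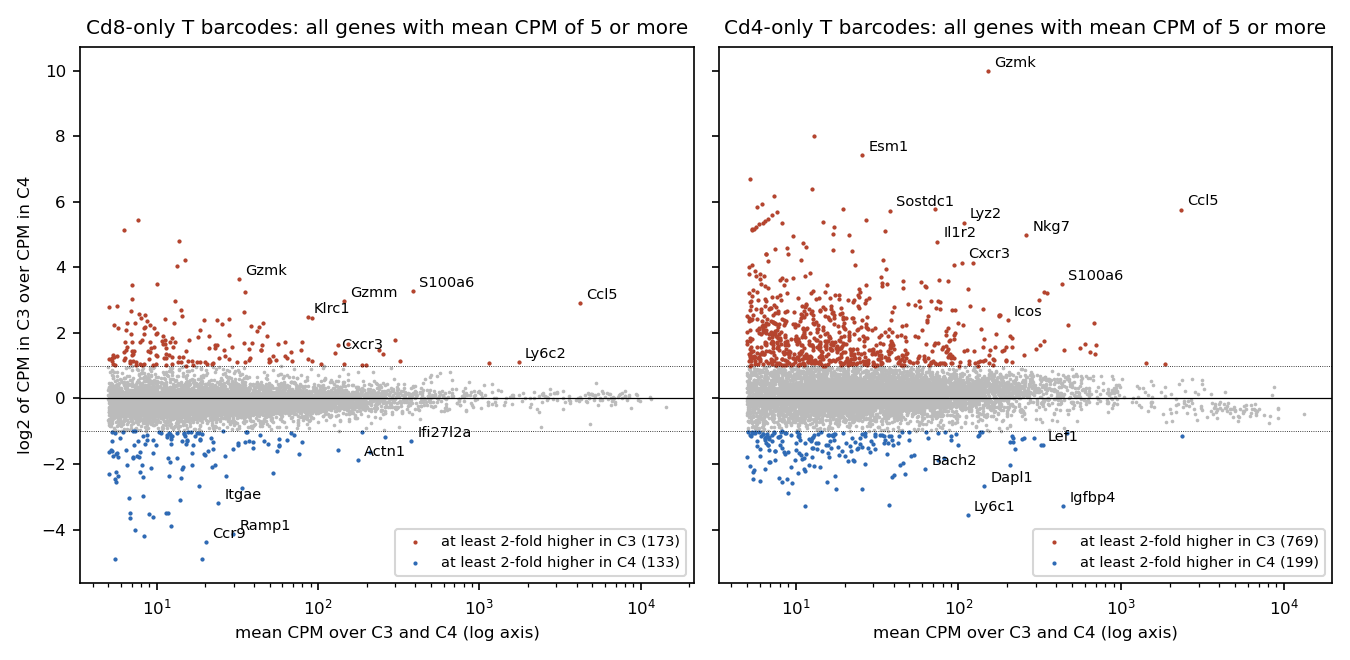
Each point is a gene with a mean of at least 5 CPM, placed by its mean CPM over C3 and C4 (log axis) and its log2 ratio of CPM in C3 over C4, for Cd8-only (left) and Cd4-only T barcodes (right). Genes at least 2-fold higher are red for C3 (173 and 769) and blue for C4 (133 and 199); a gene with 0 UMIs in C4, such as Gzmk on the right, is drawn at its lower bound.

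Of the genes that stood farthest apart, 4 are shown with the 250 bases before their RefSeq transcription start (build GRCm38.p6): the granule genes Gzmk and Nkg7, higher in C3 in both gates, and Igfbp4 and Dapl1 of the naive list, higher in C4 in both. Capitals mark the only matches found to 3 motifs searched on both strands: AGGTGTGA, bound by T-box factors such as T-bet and Eomes, CTTTGAA, bound by TCF and LEF factors, and an interferon response element written as GAAA, any 2 bases and GAAA again. The windows are chr13:113180966-113181215 on the minus strand for Gzmk, chr7:43436888-43437137 on the plus strand for Nkg7, chr11:99040994-99041243 (plus) for Igfbp4 and chr2:59484403-59484652 (plus) for Dapl1.
Gzmk: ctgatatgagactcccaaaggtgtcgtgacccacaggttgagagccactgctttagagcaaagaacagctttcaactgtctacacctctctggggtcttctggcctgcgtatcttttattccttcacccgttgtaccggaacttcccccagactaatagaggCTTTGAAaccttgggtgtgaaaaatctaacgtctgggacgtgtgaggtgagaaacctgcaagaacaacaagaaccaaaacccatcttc
Nkg7: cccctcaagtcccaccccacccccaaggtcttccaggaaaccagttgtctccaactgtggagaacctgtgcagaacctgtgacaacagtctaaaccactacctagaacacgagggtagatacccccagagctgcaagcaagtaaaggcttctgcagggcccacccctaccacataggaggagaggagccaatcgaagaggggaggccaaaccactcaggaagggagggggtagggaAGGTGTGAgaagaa
Igfbp4: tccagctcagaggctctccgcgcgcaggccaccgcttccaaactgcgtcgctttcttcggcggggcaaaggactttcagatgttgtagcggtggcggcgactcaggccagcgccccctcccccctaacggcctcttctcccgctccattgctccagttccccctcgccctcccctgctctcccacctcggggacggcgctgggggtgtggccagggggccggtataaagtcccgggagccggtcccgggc
Dapl1: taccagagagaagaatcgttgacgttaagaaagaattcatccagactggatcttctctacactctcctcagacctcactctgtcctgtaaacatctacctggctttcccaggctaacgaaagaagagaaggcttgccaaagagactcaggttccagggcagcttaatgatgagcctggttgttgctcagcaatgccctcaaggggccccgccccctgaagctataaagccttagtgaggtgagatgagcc
Gzmk held CTTTGAA 88 bases before the start and Nkg7 held AGGTGTGA 14 bases before it, while these letters were in neither of the other windows. Other genes higher in C3 that were searched, Cxcr3, Gzmm, Klrc1, S100a6 and Il21, held no match, and Eomes held only the interferon element. AGGTGTGA was in 1.12% of 32851 mouse promoters of this length, CTTTGAA in 4.46% and the interferon element in 2.98%. Among promoters of genes higher in C3, AGGTGTGA was in 3 of 139 (2.16%) in the Cd8-only gate and 6 of 562 (1.07%) in the Cd4-only gate. Among those of genes higher in C4 it was in 1 of 98 (1.02%) and 0 of 149. Among all measured genes with a promoter the share was 0.877% and 0.848%. CTTTGAA was in 5.76% and 5.34% of promoters of genes higher in C3 in the Cd8-only and Cd4-only gates. For genes higher in C4 its share was 4.08% and 6.04%, and for all measured genes 3.81% and 3.98%. A match is a description of letters, not a bound site.

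Cytotoxic granule genes stood on the C3 side of the CD8 lineage: 8 of 12 measured members were at least 2-fold higher in C3 and 0 in C4, with a median log2 ratio of 1.06. Gzmm, which encodes granzyme M, was at 258 CPM in C3 and 32.8 in C4 (7.86-fold, 6.98 to 8.88). Its UMIs were found in 60.0% of Cd8-only barcodes in C3 and 9.53% in C4, or 40.1% and 5.76% after thinning every barcode to 3000 UMIs. In B barcodes, which should lack it, the share was 0.298% in C3 and 0.0541% in C4 at median depths of 5196 and 3896 UMIs. Gzmk, granzyme K, was at 59.7 and 4.81 CPM (12.4-fold, 9.12 to 17.3), and Gzmb, granzyme B, at 26.5 and 0.939 CPM (28.2-fold, 14.3 to 65.5). Gzmk UMIs lay in 10.1% of barcodes in C3 and 1.2% in C4, and Gzmb in 6.79% and 0.278%, so both marked a minority of cells while Gzmm was widespread in C3. Nkg7, a granule membrane protein of cytotoxic cells, was at 1558 and 742 CPM and present in 98.6% and 89.4% of barcodes. Fasl, the death ligand, was at 39.8 and 7.63 CPM, while perforin (Prf1), at 78.2 and 39.5, stayed just under 2-fold. Srgn, the granule proteoglycan, did not follow, at 370 and 369 CPM, and Gzma was low in both at 4.55 and 7.87. The 7 NK cell markers summed to 168 CPM in C3 and 108 in C4 in this gate, with Ncr1 at 0 in C3. Of these sums Eomes, also a member of the memory list, gave 140 and 74.0 CPM. The part of NK cell markers in the granule difference was not tested.

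Chemokine genes went the same way, with 7 of 16 measured members higher in C3 and 1 in C4 (median 0.84). Ccl5, a chemokine that memory CD8 cells store as transcript, was the most abundant of them at 7404 CPM in C3 and 986.5 in C4 (7.51-fold, 7.35 to 7.67). Ccl5 UMIs were in 94.7% of Cd8-only barcodes in C3 and 26.4% in C4 (93.3% and 23.3% thinned), against 12.8% and 0.541% of B barcodes. Low-UMI barcodes, with 50 to under 200 UMIs and taken as a sample of free RNA, held Ccl5 at 3954 CPM in C3 and 327 in C4, and B barcodes at 15.1 and 10.5. Ccl4 was at 156 and 28.2 CPM, and Ccl3 at 25.1 and 1.53. The receptors went both ways: Ccr9 and Ccr7, described with the C4 side, were lower in C3, while Ccr2 was at 59.6 and 9.63, and Cxcr3, which guides T cells into inflamed tissue, at 184 and 70.3.

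Memory genes were higher in C3 in 9 of 13 measured members and higher in C4 in 1 (median 1.12). S100a6, a calcium-binding protein of activated and memory T cells, was at 703 and 72.6 CPM (9.68-fold, 8.94 to 10.5) and led the S100, annexin and adhesion list, of which 8 of 22 members were higher in C3 and 1 in C4. Itgb1, the integrin beta 1 chain, was at 234 and 73.5 CPM, and Cd44 at 68.1 and 31.4. Ly6c2 was at 2392 and 1105 CPM, with its near-identical neighbour Ly6c1 at 3.17 and 11.2; reads of such a pair can be split between them by the counting. Tbx21 was at 64.8 and 23.4 CPM, while Eomes, at 140 and 74.0, fell short of 2-fold. NK-type receptors were higher in C3 in 6 of 11 measured members and in C4 in 0 (median 1.13). Klrc1, the NKG2A chain, was at 146 and 26.2 CPM (5.60-fold, 4.90 to 6.42) while its partner Klrd1 (CD94) was nearly level at 256 and 240. Klrk1, the NKG2D receptor, was at 63.3 and 13.6 CPM.

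Checkpoint and costimulatory receptors split: 4 of 14 measured members were higher in C3 and 2 in C4, around a median of -0.05. Over all genes of the Cd8-only gate 1.98% were higher in C3 and 1.53% in C4. The inhibitory receptors Tigit (30.01 and 7.04 CPM), Lag3 (16.0 and 3.99) and Pdcd1 (8.90 and 3.76) were higher in C3 at low levels. Cd226, the activating receptor that shares ligands with TIGIT, was higher in C4, at 30.6 CPM in C3 and 83.5 in C4, and so was Tnfrsf4 (5.45 and 11.9). Cell cycle genes were higher in C3 in 5 of 16 members and in C4 in 0 (median 0.74), with Birc5 at 24.3 and 11.2 CPM. Cytokine transcripts were few: 1 of 7 measured members, Ifng, was higher in C3 at 28.1 and 7.63 CPM, and Tnf was at 15.7 and 20.3.

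The largest ratios on the C4 side of the CD8 lineage were of genes with different roles. Ccr9, the gut and thymus chemokine receptor, was at 1.84 CPM in C3 and 38.3 in C4 (20.9-fold, 16.5 to 26.6), in 1.25% and 19.1% of barcodes (0.702% and 11.2% thinned), against 0.447% and 0.216% of B barcodes. Itgae, the CD103 integrin chain, was at 4.73 and 43.4 CPM (9.19-fold, 7.78 to 10.9), and Ramp1, a receptor partner for the neuropeptide CGRP, at 3.19 and 56.2 (17.6-fold, 14.7 to 21.2). Of the naive and recirculation list, 5 of 13 measured members were at least 2-fold higher in C4 and 0 in C3 (median -0.54): Actn1 (75.5 and 278 CPM), Dapl1 (102 and 317), Igfbp4 (66.7 and 198), Lef1 (161 and 362) and Bach2 (27.7 and 60.0). Ccr7 lay just inside the limit at 172 and 337 CPM. Il7r, the interleukin-7 receptor, at 590 and 412 CPM, ran the other way, so the list did not move as a block. Ifngr2, the second chain of the interferon gamma receptor, was at 1.92 and 21.5 CPM (11.2-fold, 8.72 to 14.5), while Ifngr1 was at 238 and 175. Of 21 interferon response genes 3 were higher in C4 and 0 in C3 (median -0.38), Ifi27l2a among them at 219 and 540 CPM. Of 9 measured genes of the regulatory list 4 were higher in C4 and 1 in C3, namely Itgae, Izumo1r, Ikzf2 and Tnfrsf4 on the C4 side. Foxp3 itself was below the level for a call, at 0.419 and 5.87 CPM.

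**Figure D2:**
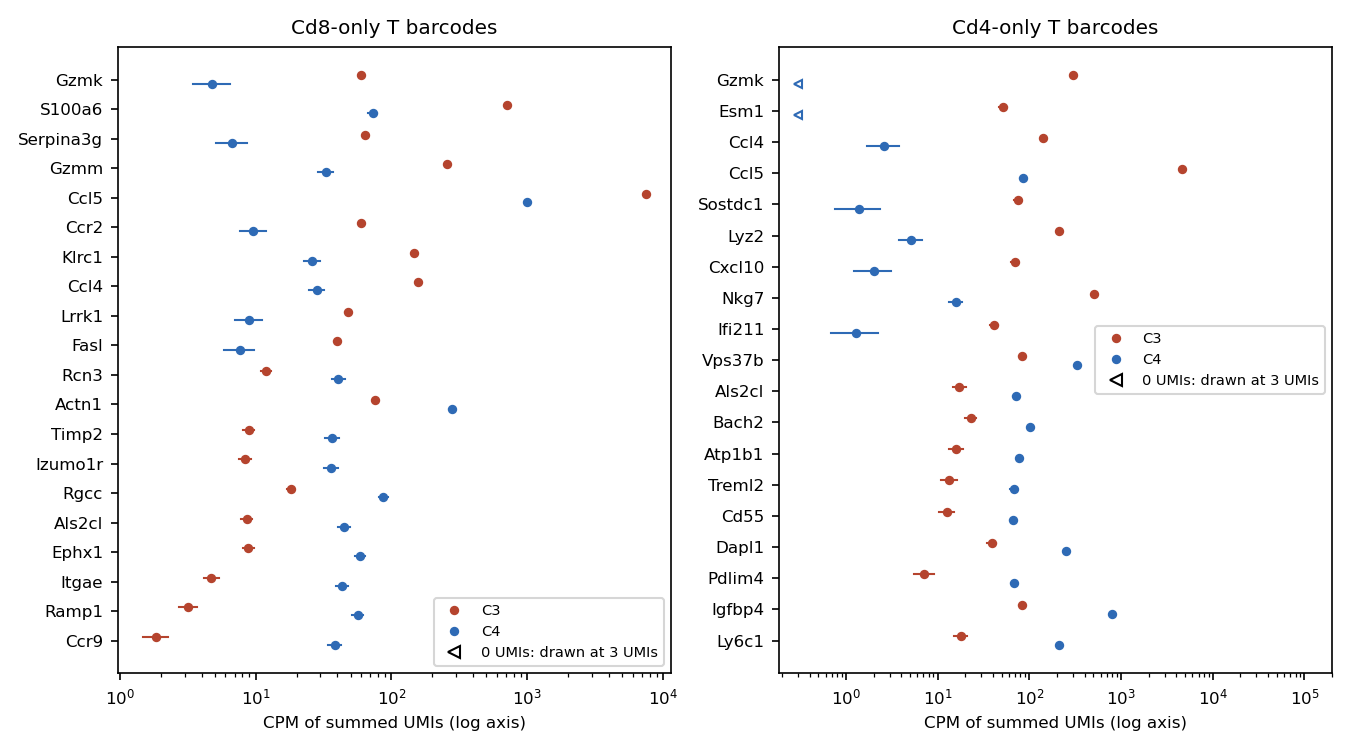
CPM of summed UMIs (log axis) in C3 (red) and C4 (blue) for the genes with the largest ratio in each direction and a mean of at least 20 CPM (10 a direction; 9 higher in C3 are drawn on the right), in Cd8-only (left) and Cd4-only T barcodes (right). Bars are exact 95% Poisson intervals, often narrower than the points, and open triangles mark the floor of 3 UMIs where a library held 0 UMIs (Gzmk and Esm1 in the Cd4-only gate of C4); no gene shown had overlapping intervals.

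CD4 lineage cells differed more, and the genes of largest ratio included several better known from CD8 and NK cells. Gzmk was at 303 CPM in C3 with 2543 UMIs and had 0 UMIs in C4, so with C4 set at a floor of 3 UMIs it was at least 1009-fold higher in C3. Esm1, an endothelial proteoglycan gene that lies beside Gzmk on chromosome 13 (Gzmk at 113171630-113180965, Esm1 at 113209659-113218104), was at 51.4 CPM against 0 UMIs (at least 171-fold at the same floor). In the Cd8-only gate Esm1 was at 2.27 CPM in C3 and had 0 UMIs in C4. Ccl5 was at 4590 and 84.4 CPM (54.4-fold, 50.8 to 58.3), in 34.0% and 2.01% of Cd4-only barcodes (25.8% and 1.37% thinned). Ccl4 was at 142 and 2.60 CPM, Nkg7 at 505 and 15.8 and Eomes at 65.4 and 3.5. Of 10 measured granule genes 7 were higher in C3 and 0 in C4 (median 1.74). Gzmm, widespread in Cd8-only barcodes of C3, was below the level for a call here at 1.79 and 0.400 CPM. NK cell markers summed to 117 and 18.6 CPM in this gate, of which Eomes gave 65.4 and 3.5. Ncr1, Klra8 and Klra4 were at 0 in C3, and the part of NK cell markers was not tested. Of 17 chemokines and receptors 11 were higher in C3 and 1 in C4, the 1 being Ccr7 (median 2.01).

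Every measured follicular helper gene, 10 of 10, was at least 2-fold higher in C3 (median 2.65). Sostdc1, a secreted antagonist known from follicular helper cells, was at 74.4 and 1.40 CPM (53.1-fold, 31.4 to 97.8), in 7.36% and 0.189% of barcodes and in 0 B barcodes of either library. Il21, the cytokine of these cells, was at 33.6 and 0.9 CPM (37.3-fold, 19.4 to 82.4). Tox2 was at 67.0 and 5.90 CPM, Cxcr5 at 47.1 and 6.30, Pdcd1 at 101 and 13, and Icos at 337 and 64.3. Bcl6, the lineage factor, stood less far apart at 33.2 and 11.6 CPM (2.86-fold, 2.30 to 3.59). Sh2d1a, the adaptor SAP, was at 327 and 87.9 CPM. The 769 genes higher in C3 were 8.39% of those measured. The list was chosen with earlier results of these data known, so that share stands beside the count as background and was not tested.

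Cytokine genes were higher in C3 in 10 of 13 measured members and in C4 in 0 (median 2.85), and they crossed helper types. Beside Il21 they included Ifng (49.6 and 4.50 CPM), Il2 (42.6 and 1.90), Il22 (14.5 and 0.200), Il17a (11.9 and 0.9), Il4 (12.3 and 3.40) and Tnf (57.9 and 19.5), and the TNF family ligands Tnfsf8 (306 and 52.0) and Tnfsf11, which encodes RANKL (94.7 and 13.1). Ltb, Lta and Tgfb1 stayed within 2-fold. Among lineage factors, Tbx21 was at 22.9 and 1.60 CPM and Batf, an activation factor, at 303 and 51.3, while Gata3 stayed within 2-fold at 68.3 and 36.4. In all, 10 of 23 measured factors were higher in C3, 11 stayed within 2-fold and 2, Lef1 and Bach2, were higher in C4 (median 0.81). Zbtb7b, the factor that commits thymocytes to the CD4 lineage, was at 40.7 and 56.4 CPM.

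Among receptors in the Cd4-only gate, 9 of 17 checkpoint and costimulatory genes were higher in C3 and 0 in C4 (median 1.56). Tigit was at 177 and 10.5 CPM (16.8-fold, 13.8 to 20.7), in 40.0% and 3.40% of barcodes, against 3.28% and 0% of B barcodes. Lag3 was at 62.1 and 4.80 CPM, Ctla4 at 319 and 108, and Tnfrsf4, the OX40 receptor, at 270 and 69.8. The regulatory list did not follow its own factor: 5 of 14 measured members were higher in C3 (Ctla4, Ikzf2, Tnfrsf4, Nrp1 and Tigit, of which several are also carried by conventional activated cells) and 2 in C4 (Il2ra and Gpr83). Foxp3 was at 20.6 CPM in C3 and 36.7 in C4, and Il2ra, the high-affinity interleukin-2 receptor chain, was higher in C4 at 10.6 and 42.4 (4.00-fold, 3.18 to 5.09). Il1r2, the interleukin-1 decoy receptor, was at 143 and 5.20 CPM; it is in no list and was picked after its values were seen.

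Memory and adhesion genes of CD4 lineage cells were higher in C3 in 11 of 14 and 13 of 22 measured members (medians 2.10 and 1.18). S100a6 was at 795 and 70.9 CPM, S100a4 at 633 and 68.4, Itgb1 at 606 and 63.6, and Cxcr3 at 200 and 11.3. Ly6c1 was the exception at 17.7 and 210 CPM (11.8-fold higher in C4, 10.0 to 14.1), with Ly6c2 at 22.9 and 15.2. Cell cycle genes were higher in C3 in 13 of 16 members and in C4 in 0 (median 2.07), with Mki67 at 127 and 18.7 CPM and Cdk1 at 31.6 and 3.5. Barcodes with a UMI of Mki67 or Top2a were 20.0% in C3 and 5.22% in C4, and without them 691 of the 968 calls remained. Survival genes included Bcl2a1d at 159 and 13.2 CPM, while Bcl2 was at 76.4 and 116.

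Naive genes of CD4 lineage cells were higher in C4 in 9 of 13 measured members and in C3 in 0 (median -1.34). Igfbp4, an IGF-binding protein transcribed in naive CD4 cells, was at 82.8 and 802 CPM (9.69-fold, 8.96 to 10.5), in 10.1% and 67.3% of barcodes (9.03% and 62.0% thinned) and in 0% and 0.433% of B barcodes. Dapl1 was at 38.8 and 249 CPM, Lef1 at 176 and 469, Ccr7 at 180 and 482, and Satb1 at 123 and 310. Tcf7 was close to level at 533 and 586 CPM. Outside the list, Pdlim4 was at 7.14 and 68.2 CPM, Cd55, a complement regulator, at 12.5 and 65.7, and Vps37b at 82.9 and 335.

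Ribosomal and respiratory genes stayed within 2-fold but leaned one way in CD4 lineage cells. None of 76 ribosomal protein genes and none of 75 oxidative phosphorylation genes reached 2-fold in either gate. Ribosomal medians were 0.03 in the Cd8-only and -0.32 in the Cd4-only gate, and oxidative phosphorylation medians 0.14 and 0.36. In the Cd4-only gate 70 of the 76 ribosomal genes had more CPM in C4, their sum being 248300 CPM in C3 and 319600 in C4, and 71 of the 75 oxidative phosphorylation genes had more in C3. The 15 MHC class I pathway genes had medians of 0.04 and 0.57 with 0 calls, and in the Cd4-only gate every member was above 0, from 0.27 to 0.81. Over all 9171 genes measured in the Cd4-only gate the median was 0.14, so the gate itself leaned to C3. CPM divides by the total of the sum, so these lists are not independent of the ribosomal share, whose part in the counts was not tested. Of the glycolysis genes 3 of 13 were called in the Cd4-only gate, all higher in C3, with Gapdh at 2492 and 1207 CPM. Over all genes of that gate 8.39% were higher in C3 and 2.17% in C4. Immediate early genes, which dissociation can induce, were close to level, with medians of -0.28 and -0.00: 0 of 18 were higher in C3 and 2 in C4 in the Cd8-only gate, and 3 of 20 and 1 in the Cd4-only gate. Of 9 measured heat shock genes 0 were called in either gate. Xist was at 346 and 281 CPM in the Cd8-only gate and 380 and 231 in the Cd4-only gate, and 4 Y-linked genes had 0 UMIs in all 4 sums.

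**Figure D3:**
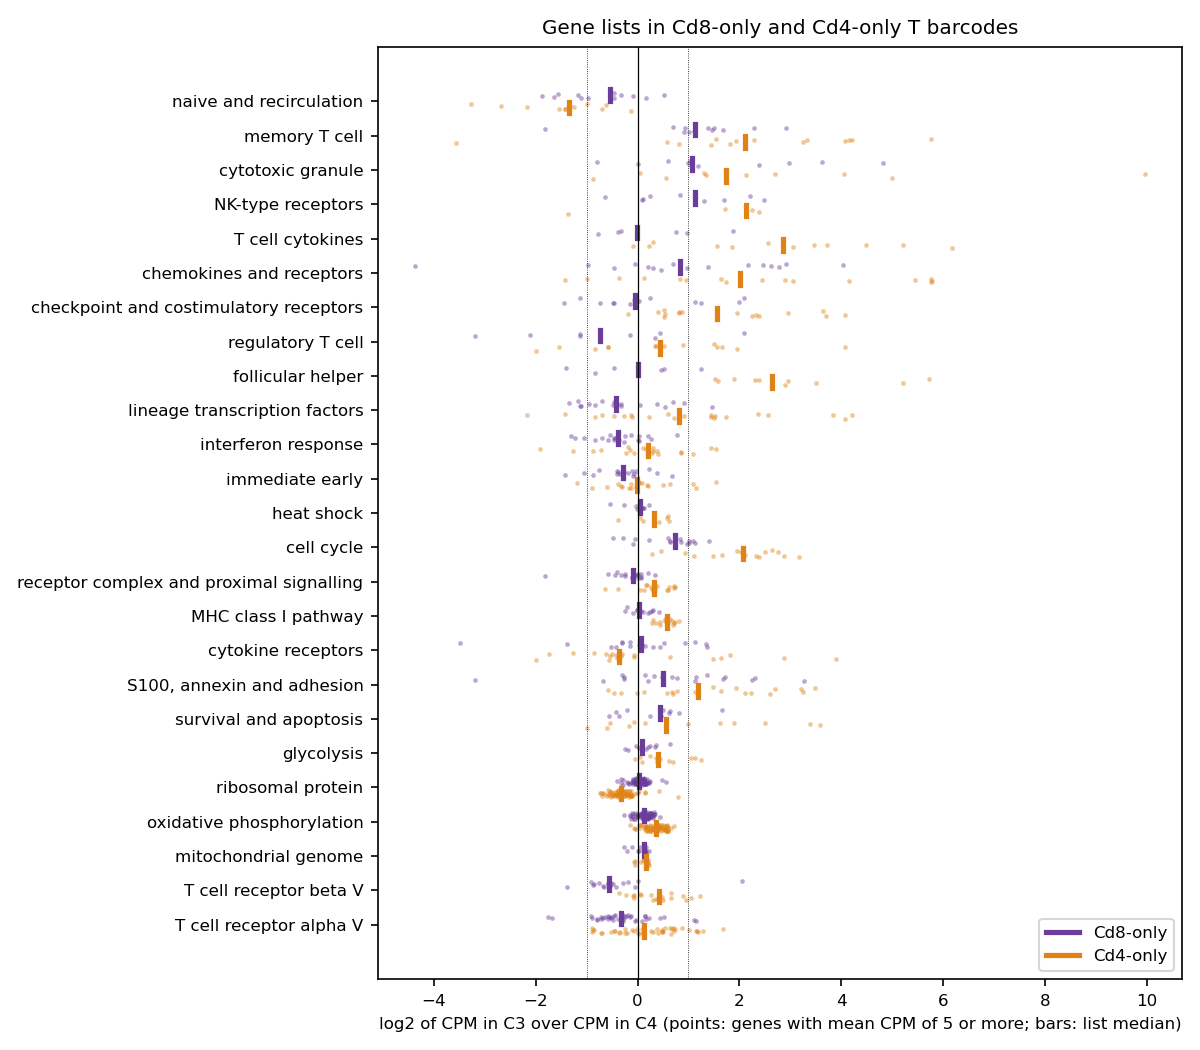
Log2 ratio of CPM in C3 over C4 for the measured members of 25 gene lists (points; vertical jitter only separates them) with the list median (bar), in Cd8-only (purple) and Cd4-only T barcodes (orange). Dotted lines mark 2-fold; follicular helper genes lie past it in the Cd4-only gate with a median of 2.65, naive genes have medians of -0.54 and -1.34, and ribosomal protein genes stay inside the lines in both gates.

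A few Cd4-only calls rested on few barcodes. Lyz2, lysozyme of myeloid cells, was at 210 and 5.10 CPM, but in C3 it lay in 30 barcodes and 99.0% of its UMIs came from the top 1% of barcodes. Without barcodes holding at least 2 UMIs of Lyz2 or of class II genes, 930 of the 968 Cd4-only calls and 295 of the 306 Cd8-only calls remained. Fcer1g, a myeloid and NK signalling chain at 27.4 and 5.20 CPM in the Cd4-only gate, then had a log2 ratio of -2.2. Removing barcodes with UMIs of the gamma-delta receptor constant genes kept 292 of the 306 Cd8-only and 955 of the 968 Cd4-only calls.

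The gates were also divided by transcripts of experienced T cells. Barcodes were split by the summed UMIs of Ccl5 and S100a4 into those with at most 1 (low) and those with at least 4 (high). Both genes were higher in C3 in each gate, so the shares restate that difference per barcode and do not count experienced cells. In the Cd8-only gate 321 barcodes were low in C3 (6.01%, 5.38 to 6.68%) and 823 in C4 (76.1%, 73.5 to 78.7%), and 4963 (92.9%) and 235 (21.7%) were high. In the Cd4-only gate 660 were low in C3 (52.3%, 49.5 to 55.0%) and 1532 in C4 (96.4%, 95.4 to 97.3%), and 507 (40.1%) and 46 (2.90%) were high. Of B barcodes 0.149% and 0.108% would count as high. These shares were not thinned, and C3 was the deeper library in the Cd8-only gate and the shallower one in the Cd4-only gate.

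**Figure D4:**
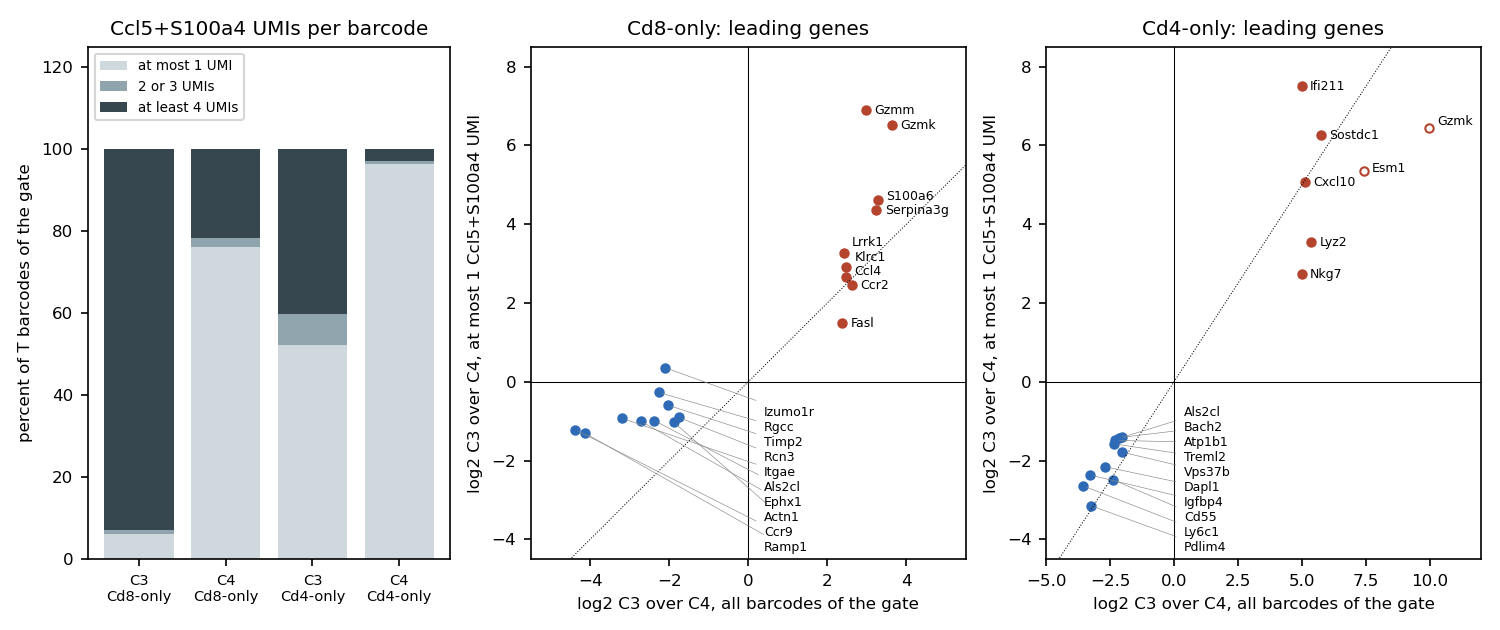
Left, percent of T barcodes of each gate with at most 1, 2 or 3, or at least 4 UMIs of Ccl5 and S100a4 together. Middle and right, log2 ratio of C3 over C4 of the leading genes in all barcodes (x) against barcodes with at most 1 such UMI (y), red for genes higher in C3 and blue for C4, open where 1 library held 0 UMIs; the dotted line is equality. In the Cd8-only gate Gzmm, Gzmk and S100a6 lie above the line, and the C4-higher genes lie closer to 0 than in all barcodes, with Izumo1r past it. Ccl5, which defines the split, and Ccl4 of the Cd4-only gate, with a mean of 0.496 CPM in low barcodes, are left out.

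Within the low CD8 barcodes, the granzymes M, K and B stayed higher in C3, while several other genes of the granule and naive lists no longer passed the call. Of 8766 genes measured in low barcodes 3.15% were higher in C3 and 1.3% in C4, and of 8660 in high barcodes 0.67% and 0.82%. Of the 306 Cd8-only calls, 118 remained among low and 72 among high barcodes. Gzmm was at 239 CPM in low barcodes of C3 and 1.99 in those of C4, while Nkg7 was at 907 and 617 and Fasl at 4.19 and 1.49, neither of them called. S100a6 was at 381 and 15.6 CPM there, Gzmb at 44.95 and 0.830, and Ifng at 40.4 and 1.83. Cell cycle genes were also higher in low barcodes of C3, with a list median of 1.86 against 0.74 in the whole gate. Actn1 of the naive list stayed 2.03-fold higher in C4, at 157 and 320 CPM. By contrast Dapl1 was at 324 and 374 CPM, Ccr7 at 300 and 387, Igfbp4 at 302 and 264, Ifi27l2a at 609 and 583 and Slamf6 at 96.4 and 95.1, all within 2-fold and 3 of them no longer lower in C3. Ccr9 and Ramp1 stayed more than 2-fold higher in C4, at 22.9 and 52.9 CPM and at 30.1 and 74.0. Among high barcodes the memory genes evened out: Cxcr3 was at 184 and 179 CPM, Ly6c2 at 2465 and 2517, Eomes at 144 and 158, and Il2rb at 380 and 447. Gzmk (61.7 and 17.03 CPM), S100a6 (723 and 216), Gzmm (259 and 116) and Ccl5 itself (7910 and 3633) stayed higher in high barcodes of C3, and Actn1 (70.6 and 173) and Id3 (36.7 and 111) in those of C4.

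Within the low CD4 barcodes most differences stood: 668 of the 968 Cd4-only calls remained, and 636 of 9028 genes (7.04%) were higher in C3 and 186 (2.06%) in C4. Il1r2 was at 197 CPM in C3 and 1.69 in C4, Sostdc1 at 114 and 1.48, Il2 at 61.6 and 1.37, Tigit at 94.1 and 6.87 and Icos at 342 and 45.1. Igfbp4, at 164 and 845 CPM, and Ly6c1, at 35.2 and 219, stayed higher in C4. Among high CD4 barcodes, of which C4 had only 46, 6.24% of 9401 genes were higher in C3 and 6.68% in C4. There the level of Gzmk was 648 CPM in C3 against 0 UMIs, Eomes at 134 and 14.8 and Cxcl10 at 95.6 and 8.44. S100a6 (1306 and 1030 CPM), Icos (314 and 426) and Mki67 (205 and 232) were alike there, and Foxp3 was at 29.6 and 146.

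Gzmk and follicular helper transcripts marked sizeable sets of CD4 cells in C3 and few or none in C4. The sets below were chosen after values were seen and are given as a description. In the Cd4-only gate 250 of 1263 barcodes of C3 (19.8%, 17.6 to 22.1%) had at least 2 Gzmk UMIs and 0 of 1589 in C4, where a count of 0, taken as 3 barcodes, allows up to 0.189%. No B barcode of either library reached 2 Gzmk UMIs. At least 2 UMIs of Cxcr5, Sostdc1 and Tox2 together were found in 255 barcodes of C3 (20.2%, 18.01 to 22.5%) and 21 of C4 (1.32%, 0.820 to 2.01%). The sets shared 52 barcodes in C3, 20.8% of the first and 20.4% of the second, beside the 20.2% and 19.8% that the sets made up of the whole gate. Foxp3 UMIs were in 56 barcodes of C3 (4.43%) and 108 of C4 (6.80%), against 0.298% and 0.216% of B barcodes, and 2 Foxp3 barcodes of C3 were in the Gzmk set. At least 2 UMIs of Il1r2 were in 132 barcodes of C3 (10.5%) and 8 of C4 (0.504%), and 52 of the 132 were in the follicular helper gene set. Barcodes in none of these sets and without Mki67 or Top2a UMIs were 606 in C3 (48.0%) and 1403 in C4 (88.3%).

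The Gzmk barcodes of C3 had a cytotoxic profile with Cd4 present and CD8 transcripts at 0, both by the rule. They held Ccl5 at 23210 CPM, Nkg7 at 2390, Ccl4 at 700, Eomes at 317, Gzmb at 221, Ifng at 212 and Lag3 at 207. Of the follicular helper genes, they held Cxcr5 at 92.9 CPM, Tox2 at 64.5 and Pdcd1 at 123. Against the whole Cd4-only gate of C3, given above, Cxcr5 and Pdcd1 were higher and Tox2 was not. In barcodes of C3 in none of the sets the same genes were at 10.3, 23.6 and 39.2. Those barcodes leave out the follicular helper gene set, which was chosen on Cxcr5, Sostdc1 and Tox2. Low levels of these genes there follow in part from that choice. Sostdc1 (4.43 CPM), Il21 (17.1) and Bcl6 (19.0) of the Gzmk barcodes were near the levels in barcodes in none of the sets, 4.65, 14.3 and 22.6. All were below their levels in the whole gate. Zbtb7b was at 12.0 CPM in the Gzmk barcodes, 36.2 in the follicular helper gene set and 52.4 in barcodes of C3 in none of the sets. Cd40lg, the helper ligand for CD40 on B cells, was at 42.4, 178 and 203 CPM in the same order, and Igfbp4 at 0, 8.09 and 201. The follicular helper gene set held Icos at 399 CPM, Pdcd1 at 199, Il1r2 at 180 and Il21 at 62.4. Among the sets of C3 its Pdcd1 was the highest, with the Il1r2 set next at 152 CPM. The other genes were not particular to it: Icos (598 CPM) and Il1r2 (393) were higher in the Foxp3 barcodes of C3. Il21 was higher in the Il1r2 set of C3, at 77.8 CPM. Even barcodes in none of the sets differed between libraries: Cxcr3 was at 148 CPM in C3 and 8.59 in C4, S100a6 at 675 and 38.2, Igfbp4 at 201 and 887, and Icos at 262 and 41.0.

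**Figure D5:**
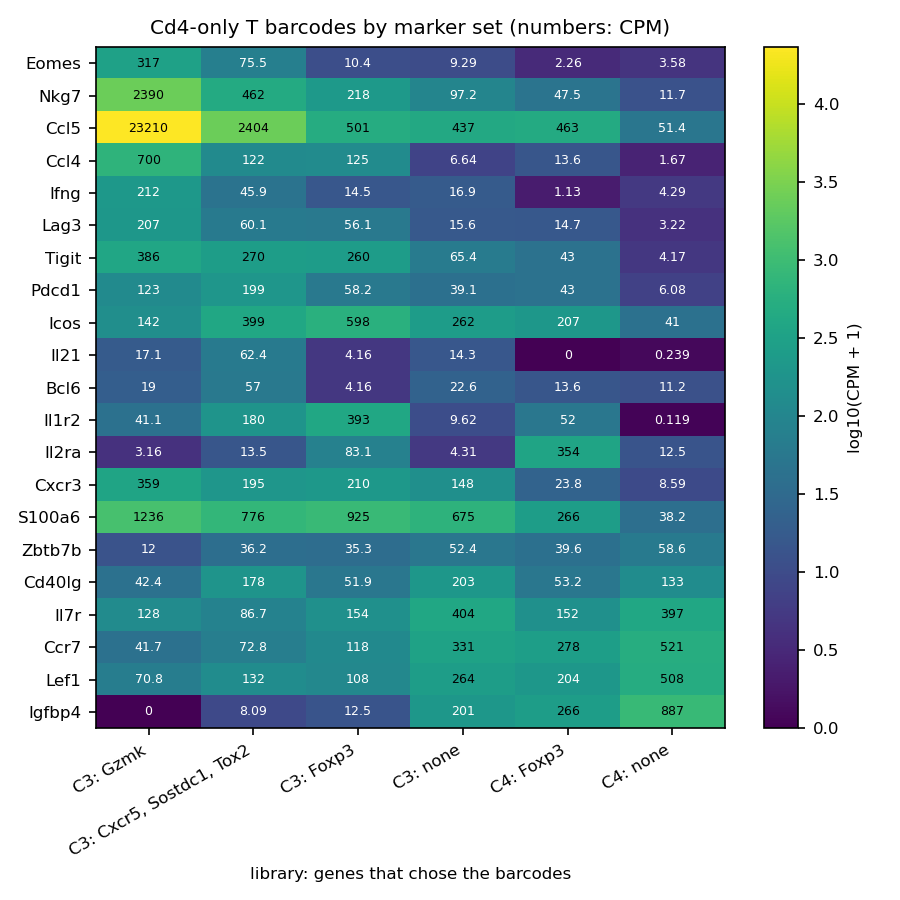
CPM of 21 genes (rows; numbers in cells, colour on a log10 scale of CPM + 1) in Cd4-only T barcodes of C3 and C4 grouped by the genes that chose them (columns), where sets can share barcodes. Gzmk barcodes of C3 hold Ccl5 at 23210 and Eomes at 317 CPM with Zbtb7b at 12.0, and barcodes of C4 in no set hold Igfbp4 at 887.

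Receptor V gene transcripts showed a similar spread of segments in both libraries. The effective number of Trbv segments, the inverse of the summed squared shares, was 16.2 in C3 and 16.1 in C4 in the Cd8-only gate and 15.6 and 14.8 in the Cd4-only gate. Trav gave 37.6 and 40.8, and 40.1 and 37.8. Trbv16 led the Cd8-only gate in both libraries with 9.44% and 9.69% of Trbv UMIs. In the Cd8-only gate 1 of 19 measured Trbv segments passed 2-fold each way, and 2 of 39 Trav segments each way. Of all genes in that gate 1.98% were higher in C3 and 1.53% in C4. Trbv2 was at 8.44 and 22.1 CPM, and Trbv20 at 66.8 and 16.2, in 8.55% and 2.405% of barcodes (4.12-fold, 3.48 to 4.93). In the Cd4-only gate 2 of 22 measured Trbv and 6 of 45 Trav segments were at least 2-fold higher in C3 and 0 in C4. Of all genes there 8.39% were higher in C3 and 2.17% in C4. Trbv20 was at 111 and 53.8 CPM in that gate, also higher in C3. Similar V segments can share reads, and how the counting treated these was not given in the sources used here.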

How the data were processed

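Per the submitters' processing notes, expression reads were processed with Cell Ranger 6.1.2 and STAR 2.7.10a against mm10, while the file headers name Cell Ranger 4. The labels' protocols name a BD Rhapsody preparation and the series' design text a 10x one; barcodes had 16 bases. The deposited matrices hold raw UMI counts for 32285 genes, not restricted to cells. UMIs were summed per library and gate and divided by their total to give CPM. Levels and ratios carry exact intervals at 95%, and a gene at 0 UMIs is set to 3 UMIs for a bound. The interval and call code was tested on simulated data. Named genes are the 10 largest ratios each way per gate with a mean of at least 20 CPM, leaving out gating, receptor V, immunoglobulin, haemoglobin, salivary and unnamed genes, and per list the largest, smallest and most abundant with at least 10 CPM; other list members illustrate counts. Members, lists and rules were chosen with earlier results of these data known. Motif windows are the first 250 bases of RefSeq promoters. Alternatives covered scaling (including edgeR 4.0.16 TMM factors), filters, gates, depth and state. Analyses used Python 3.11.15, numpy 2.4.6, scipy 1.17.1 and pandas 2.3.3. Some genes are not reported here.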

Additional observations from a re-analysis of the deposited data

Results flagged for a closer look

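Slamf6 and Ifi27l2a were each at least 2-fold apart in opposite directions in the 2 lineages, in 1 library a side. For Slamf6, a SLAM family receptor, the log2 ratio of C3 over C4 was -1.41 in the Cd8-only and 1.58 in the Cd4-only gate. For Ifi27l2a, an interferon response gene, it was -1.30 and 1.10. Whether the lineages differ was not tested. Over the 8515 genes measured in both gates 10 were of this kind, 9 of them higher in C4 in the Cd8-only gate and higher in C3 in the Cd4-only gate. The others of these 9 include Ikzf2 (-1.13 and 1.496), Tnfrsf4 (-1.12 and 1.95) and Plekho1 (-2.36 and 1.49), and the remaining gene, Ppm1j, was at 1.63 and -1.85.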

How the results depend on the processing

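No paired analysis was possible because each side of the comparison is 1 library. The 20 leading genes of each gate, those of largest ratio, kept their direction and a 2-fold ratio under other scalings, thinning, filters and gates. They also did so without the barcodes holding Lyz2 or class II, or Mki67 or Top2a, UMIs, these last 2 settings being chosen after the data were seen. The calls as a whole held less well. Of the 968 Cd4-only calls 721 remained after thinning, 730 with CPM averaged over barcodes and 834 with TMM factors. Of the 306 Cd8-only calls these settings kept 275, 290 and 279. Among low and high barcodes 12 and 14 of 19 leading Cd8-only genes stayed 2-fold, and 19 and 16 of 19 Cd4-only ones. Counts followed the level required: at a mean of 20 CPM 68 genes were higher in C3 and 41 in C4 in the Cd8-only gate and 309 and 81 in the Cd4-only gate, and with no filter 770, 2016, 2392 and 826. Within low Ccl5 and S100a4 barcodes 276 genes were higher in C3 in the Cd8-only gate, and within high ones 58 in C3 and 71 in C4, and 628 in C4 in the Cd4-only gate. The direction of the log2 ratio turned in the Cd8-only gate among low barcodes for Id3 (0.59), Ifi27l2a (0.063), Igfbp4 (0.20), Izumo1r (0.36), Slamf6 (0.0195), Trat1 (0.0047) and Trav13-2 (-0.56). Among high ones it turned for Igfbp4 (0.89), Tbx21 (-0.091) and the NK-type receptor median (-0.51). In the Cd4-only gate, against the 46 high barcodes of C4, the medians of memory (-0.27), NK-type receptor (-2.51), chemokine (-0.0332), cell cycle (-0.15) and S100 (-0.27) genes turned. So did Ccr2 (-1.56), Ctla4 (-0.84), Dapl1 (0.35), Fcer1g (-0.92), Gapdh (-0.0082), Gbp3 (-0.60), Gzmm (-0.39), Hmgb2 (-0.33), Ifi27l2a (-0.0487), Lrrk1 (-0.97), Rcn3 (0.61), S100a10 (-0.0157), Srgn (-0.40), Tpi1 (-0.13) and Trbv29 (-0.74). Fcer1g also turned without Lyz2 or class II barcodes (-2.2). The cause of these turns was not tested.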
